A study of Mus musculus with 16 samples.

Results

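Tumor macrophage state genes are described here in bulk RNA-seq of MC38 tumors, as a set of 10 genes matched by symbol among the 53465 genes of the deposited table. All 10 members were found under 1 identifier each, and all 10 passed the filter on low counts. They comprised the identity genes Csf1r and Adgre1, the scavenger receptors Mrc1 and Cd163, the arginine enzymes Arg1 and Nos2, the alternative activation gene Chil3, and the lipid-associated genes Spp1, Trem2 and Gpnmb. MC38 is a mouse colon adenocarcinoma line, grown here under the skin of the right flank of female C57BL/6 mice aged 6 to 8 weeks at implantation. The 16 tumors came from 16 mice, of which 8 received IgG control antibody and 8 received an antibody against PD-1 (aPD-1), a receptor that restrains T cells. Both antibodies were given at 200 µg on days 16 and 20, and tumors were harvested on day 21. The study divided the aPD-1 tumors by their CD8 T cell staining into 6 non-responders and 2 responders. All groups thus share 1 tumor line and 1 sex of host, and the responder label itself rests on the T cell content of the tumor.

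Macrophages in tumors derive largely from blood monocytes that enter the tissue and mature under CSF1 signalling. Signals in the tissue then push them toward different states, classically activated by interferon gamma and microbial products, alternatively activated by IL-4 and IL-13, or loaded with lipid and debris from dying cells. The genes described here are the usual transcripts by which these states are read in the mouse. In whole tumor RNA a lower level of such a gene can come from fewer macrophages or from less RNA of that gene per macrophage, and these cannot be told apart here.

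Total counts per tumor lay between 26603449 and 39948866. In 3 tumors, IgG replicate 1 and non-responder replicates 9 and 14, mitochondrial transcripts took 5.73% to 7.60% of the counts, against 2.52% to 3.25% in the other 13 tumors, and the values that move most without these 3 tumors are given beside the results. The responders stood apart from every other tumor in markers of several other cell types. All 6 B cell markers and all 6 adipocyte markers passed the test between responders and non-responders, against 19.7% of all genes. Summed as CPM, which are counts scaled to a library of 1000000, the B cell markers reached 1113 CPM in responder replicate 15 and 304 CPM in responder replicate 16, against 1.63 to 7.41 CPM in IgG and 2.49 to 6.53 CPM in non-responder tumors. The summed adipocyte markers reached 1545 and 250.5 CPM in the same tumors, against 16.6 to 92.8 CPM in IgG and 20.5 to 61.3 CPM in non-responder tumors. The part of these cells in the levels of the macrophage genes was not tested. Macrophage RNA itself was present in every tumor. The 15 pan-macrophage genes, which hold no member and include Cd68, Lyz2, Tyrobp and the C1q genes, summed to 1852 to 2460 CPM in IgG, 2021 to 3121 CPM in non-responder and 2865 and 3156 CPM in responder tumors, and none of them was at 0. Of these sums, Lyz2 alone held 1293 and 1573 CPM in the responders. It held 433 to 988 CPM in IgG and 422 to 1259 CPM in non-responder tumors.

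Of the 10 members, 2 passed the test between responders and non-responders, Mrc1 and Chil3, and both were higher in responders. An adjusted p below 0.05 was reached by 19.7% of the 18251 genes tested in that comparison, 15.4% higher and 4.34% lower, so that 2 of 10 is close to the share of genes at large. Between responders and IgG tumors 4 members passed, Arg1, Chil3, Cd163 and Mrc1, all higher in responders, against 22.9% of all genes, 17.7% higher and 5.17% lower. Between non-responders and IgG tumors no member passed, and percent called was 0 among all genes, where the smallest adjusted p was 0.442, DESeq2 called 8 genes, and the unadjusted p was under 0.05 for 694. The comparisons with the responders share those tumors, and both comparisons with IgG share the controls. The median log2 fold change of the members was 0.58 between responders and non-responders, against 0.019 over all genes. It was 0.75 against -0.021 between responders and IgG tumors, and 0.20 against -0.0057 between non-responders and IgG tumors. Every value in the responder group rests on 2 tumors, and for several members those 2 tumors were far apart.

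**Figure D1:**
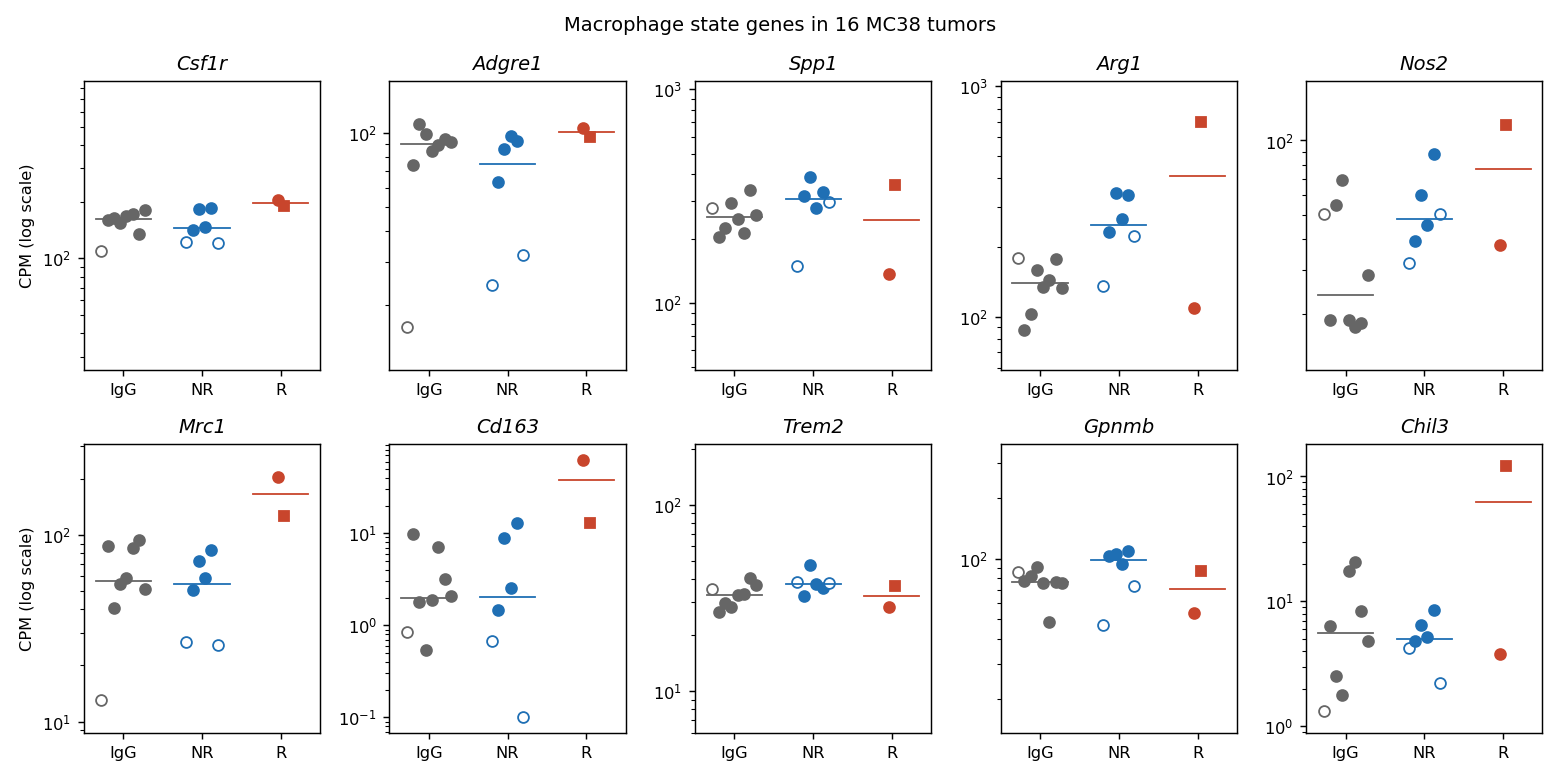
Level of each of the 10 genes in CPM (counts scaled to library size, log scale) in IgG, non-responder (NR) and responder (R) tumors, with 1 point per tumor, a line at the group median, open points for the 3 tumors of high mitochondrial share, and responder replicate 15 drawn as a circle and replicate 16 as a square. Mrc1 in both responders lay above every other tumor, at 206 and 126 CPM, whereas Chil3 was at 122 CPM in responder replicate 16 and 3.81 CPM in replicate 15.

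Levels can be compared between genes per length of transcript, as CPM per kilobase of exon. In IgG tumors the secreted protein osteopontin, encoded by Spp1, led with a median of 154 CPM per kilobase (123 to 205), followed by Arg1 with 62.6 (39.4 to 80.9), Csf1r with 28.1 (18.9 to 31.3) and Adgre1 with 28.0 (5.05 to 33.4). Gpnmb at 11.8 CPM per kilobase, Mrc1 at 8.92, Trem2 at 6.66, Nos2 at 5.39 and Chil3 at 3.43 came next, and Cd163 closed the order at 0.363 (0.0988 to 1.78). The ranges of Spp1, Arg1 and Csf1r did not overlap in IgG tumors, so the order of these neighbours held in every tumor. Adgre1 overlapped with Csf1r, their medians being nearly equal, and over its full range with the genes from Gpnmb to Chil3, and the neighbours from Gpnmb to Chil3 overlapped as well. The place of Trem2 depends on the length used. With the longest coding transcript in place of all exons, its level became 30.3 CPM per kilobase, beside 34.5 for Csf1r and 28.0 for Adgre1. In responder replicate 16 Arg1 reached 316 CPM per kilobase of exon and passed Spp1, at 216, which by this length was the reverse of every other tumor. In CPM, before division by length, non-responder replicate 13 also held more Arg1 than Spp1, 336 against 330 CPM. The longest coding transcripts of Arg1 and Spp1 are of near equal length, 1477 and 1507 bases. The order in that tumor thus depends on the length used.

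Csf1r encodes the receptor for CSF1 and IL-34 on which most macrophages depend, and it was among the steadiest members. Its level ran from 109 through a median of 162 to 181 CPM in IgG tumors, from 121 through 144 to 186 CPM in non-responders, and stood at 204 and 190.1 CPM in the 2 responders. Both responders lay above every other tumor, an order that 21.5% of all genes showed against non-responders and 19.3% against IgG tumors. The log2 fold change of responders was 0.40 (SE 0.19, adjusted p = 0.159) against non-responders and 0.34 (SE 0.18, adjusted p = 0.201) against IgG tumors, neither of which passed. Between non-responders and IgG tumors it was -0.053, with a 95% interval of -0.30 to 0.19.

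Adgre1 (chr17:57358691-57483527, plus strand, GRCm38) encodes F4/80, the adhesion receptor most used to mark mouse macrophages. It ranged from 16.3 through a median of 90.6 to 108 CPM in IgG tumors, from 24.2 through 75.0 to 97.1 CPM in non-responders, and was 105 and 96.5 CPM in responders. The spread came from the 3 tumors of high mitochondrial share, which held 16.3 to 32.1 CPM, below the 63.5 to 108 CPM of the other 11 IgG and non-responder tumors without overlap. Csf1r in the same 3 tumors was lower too, at 109 to 121 CPM against 134 to 186 CPM, but the gap was much narrower. The summed pan-macrophage genes, at 1852, 2021 and 2054 CPM in these tumors, lay within or just below the range of the others. Of these sums, Lyz2 alone held 433, 422 and 490 CPM, below the 519 to 1259 CPM of the other 11 tumors. Adgre1 did not pass in any comparison, with log2 fold changes of 0.61 (SE 0.52, adjusted p = 0.477) between responders and non-responders and 0.29 (SE 0.51, adjusted p = 0.739) between responders and IgG tumors. Without the 3 tumors these fell to 0.19 and 0.082.

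The scavenger receptors Mrc1 and Cd163 and the alternative activation gene Chil3 were the members with the largest log2 fold changes of responders against non-responders, and the 250 bases before the RefSeq start of each of these 3 genes are shown. The sequences are from RefSeq on GRCm38.p6, read 5′ to 3′ on the strand of the gene, and capitals mark matches to short motifs searched on both strands.
Mrc1 (chr2:14229164-14229413, plus strand): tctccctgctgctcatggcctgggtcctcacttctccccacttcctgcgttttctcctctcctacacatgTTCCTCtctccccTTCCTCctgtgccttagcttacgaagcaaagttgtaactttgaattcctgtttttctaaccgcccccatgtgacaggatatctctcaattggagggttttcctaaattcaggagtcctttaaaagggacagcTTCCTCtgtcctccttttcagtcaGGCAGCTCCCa
Cd163 (chr6:124304401-124304650, plus strand): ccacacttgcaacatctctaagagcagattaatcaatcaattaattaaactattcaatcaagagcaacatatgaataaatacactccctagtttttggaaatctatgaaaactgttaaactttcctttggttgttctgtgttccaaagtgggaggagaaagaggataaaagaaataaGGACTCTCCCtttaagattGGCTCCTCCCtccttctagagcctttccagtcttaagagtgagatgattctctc
Chil3 (chr3:106167565-106167814, minus strand): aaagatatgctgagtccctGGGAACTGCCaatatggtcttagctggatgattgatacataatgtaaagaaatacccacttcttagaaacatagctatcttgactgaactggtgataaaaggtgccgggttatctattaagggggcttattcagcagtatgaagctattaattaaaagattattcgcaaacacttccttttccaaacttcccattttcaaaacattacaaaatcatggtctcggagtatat
The motifs were chosen after the data were seen, and comprised a PU.1 core (GAGGAA), STAT6 (TTC and GAA 4 bases apart), AP-1 (TGANTCA), C/EBP (TTGCNNAA), a hypoxia response core (ACGTG), NF-kB (GGGA and CC 4 bases apart), ISRE (GAAA and again GAAA, 2 bases apart) and the CLEAR E-box (CACGTG), which contains the hypoxia core. Mrc1 held the PU.1 core 3 times, with first bases at positions -180, -167 and -35 from the start, and NF-kB once at -11. The Mrc1 window ends at 14229413, past the start of the gene in GENCODE at 14229392. Its last bases, with the NF-kB match, thus lie inside the gene as GENCODE places it. Cd163 held NF-kB at -73 and -54, and Chil3 held NF-kB at -231. Among 32851 windows of the same length, 23.3% held the PU.1 core and 17.6% held NF-kB. The 3 sequences thus shared the NF-kB letters, which are common, and a match describes the letters only.

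Mrc1 (chr2:14229392-14332057, plus strand) encodes the mannose receptor CD206, which takes up glycoproteins and is raised in alternatively activated macrophages. It ran from 13.04 through a median of 56.8 to 94.5 CPM in IgG tumors, from 25.8 through 54.8 to 83.3 CPM in non-responders, and stood at 206 and 126 CPM in responder replicates 15 and 16. Both responders exceeded all 14 other tumors, although responder replicate 16 was only 126 CPM against 94.5 CPM in the highest IgG tumor. With means of 166 ± 56.3 (SD, n = 2) CPM in responders, 53.0 ± 23.6 (SD, n = 6) CPM in non-responders and 60.8 ± 27.5 (SD, n = 8) CPM in IgG tumors, Mrc1 rose by a log2 fold change of 1.65 (SE 0.50, adjusted p = 0.0288) against non-responders and 1.45 (SE 0.48, adjusted p = 0.0380) against IgG tumors. The exact permutation test, two-sided, gave p = 0.0714 and 0.0889, where 0.0357 and 0.0222 are the smallest it can give. Against non-responders it was lost without responder replicate 15 (1.19, adjusted p = 0.425) and narrowly without responder replicate 16 (1.91, adjusted p = 0.050001) or any of non-responder replicates 9, 10 and 14 (adjusted p 0.0507 to 0.0541), and with no filter on low counts (adjusted p = 0.0789). Against IgG tumors it was lost without either responder (0.98, adjusted p = 0.499, and 1.71, adjusted p = 0.0663), without IgG replicate 3, 4, 5 or 8 or non-responder replicate 10 (adjusted p 0.0528 to 0.0578), and with no filter (adjusted p = 0.0953). Without the 3 tumors of high mitochondrial share, which held the 3 lowest levels of Mrc1, the log2 fold changes were 1.27 (adjusted p = 0.0113) and 1.24 (adjusted p = 0.00495). Relative to Csf1r, Mrc1 stood at a ratio of 1.01 in responder replicate 15, above the 0.120 to 0.705 of IgG and the 0.213 to 0.449 of non-responder tumors, whereas responder replicate 16, at 0.665, lay inside the IgG range. The adipocyte markers moved with Mrc1: their sum was highest in the responders, and within the IgG group it was highest in replicates 7 and 2, at 92.8 and 76.0 CPM, the tumors with the highest Mrc1 of that group at 94.5 and 87.7 CPM. The part of the adipocyte RNA in the level of Mrc1 was not tested.

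Cd163 (chr6:124304656-124330527, plus strand) encodes the scavenger receptor for haptoglobin bound to haemoglobin and marks mature tissue macrophages. It was the scarcest and most variable member, from 0.540 through a median of 1.98 to 9.73 CPM in IgG tumors and from 0.102 through 2.01 to 12.88 CPM in non-responders, where non-responder replicate 14 held 3 counts. The responders held 62.6 CPM in replicate 15 and 12.85 CPM in replicate 16, so that both lay above all IgG tumors, and replicate 16 lay level with the highest non-responder, replicate 13. The log2 fold change was 3.46 (SE 1.00, adjusted p = 0.0192) against IgG tumors, which passed, and 3.09 (SE 1.09, adjusted p = 0.0576) against non-responders, which did not. Against IgG tumors the exact permutation test gave p = 0.0222, the smallest it can give with 2 against 8. That call was lost without responder replicate 15, where the log2 fold change was 1.84 (adjusted p = 0.551), and with no filter on low counts (adjusted p = 0.0527). Against non-responders Cd163 passed once non-responder replicate 13 was left out, at 3.79 (adjusted p = 0.0253). Without the 3 tumors of high mitochondrial share it was 2.497 (adjusted p = 0.0941) against non-responders and 3.27 (adjusted p = 0.0143) against IgG tumors.

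Arg1 and Nos2 encode enzymes that compete for arginine, the first, arginase 1, yielding ornithine and urea, and the second, inducible nitric oxide synthase, yielding nitric oxide. Arg1 (chr10:24915221-24927484, minus strand) ran from 87.7 through a median of 139 to 180.2 CPM in IgG tumors, from 136 through 249.8 to 344 CPM in non-responders, and was 109 and 703 CPM in the 2 responders. Of the 6 non-responders, 5 lay above every IgG tumor, and non-responder replicate 9 lay within the IgG range. Responder replicate 16 held the most Arg1 of all tumors and responder replicate 15 lay below every non-responder. Between non-responders and IgG tumors, with means of 257 ± 77.8 (SD, n = 6) and 140.1 ± 33.3 (SD, n = 8) CPM, the log2 fold change was 0.87 (SE 0.31), with an unadjusted p of 0.0111 that did not hold across all genes (adjusted p = 0.987). As a single value it had an exact permutation p of 0.0040, two-sided and unadjusted, among the 10 members tested in 3 comparisons. Without the 3 tumors of high mitochondrial share the log2 fold change was 1.13. Against IgG tumors the responders were higher by 1.54 (SE 0.41, adjusted p = 0.0113), a call that responder replicate 16 made alone: without it the log2 fold change was -0.42 (adjusted p = 0.544). Against non-responders the log2 fold change was 0.66 (SE 0.45, adjusted p = 0.353) with both responders, 1.39 (adjusted p = 0.0339) with replicate 16 alone and -1.29 (adjusted p = 0.0629) with replicate 15 alone.

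Nos2 (chr11:78920787-78960254, plus strand) ran from 17.8 through a median of 23.8 to 69.1 CPM in IgG tumors, from 32.0 through 48.1 to 87.8 CPM in non-responders, and was 38.0 and 116 CPM in responder replicates 15 and 16. The IgG tumors fell into 5 with 17.8 to 28.7 CPM and 3, replicates 1, 3 and 4, with 50.4 to 69.1 CPM, and all 6 non-responders exceeded the first of these sets. Its log2 fold changes were 0.55 (SE 0.54, adjusted p = 0.549) between responders and non-responders, 1.15 (SE 0.50, adjusted p = 0.114) between responders and IgG tumors and 0.60 (SE 0.36, adjusted p = 0.987) between non-responders and IgG tumors. Only the comparison of responders with IgG tumors passed under any alternative, and only without IgG replicate 4 (1.37, adjusted p = 0.0442). Responder replicate 16 was thus the tumor with the most of both arginine enzymes, and the ratio of Arg1 to Nos2 there, 6.07, was close to the 3.83 to 5.94 of non-responders and inside the 1.86 to 9.72 of IgG tumors.

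Chil3 (chr3:106147554-106167564, minus strand) encodes the secreted chitinase-like protein Ym1, an IL-4 induced product of mouse macrophages that neutrophils make as well. It ran from 1.33 through a median of 5.60 to 20.7 CPM in IgG tumors and from 2.24 through 5.02 to 8.61 CPM in non-responders. Responder replicate 16 held 122 CPM, from 4332 counts, and responder replicate 15 held 3.81 CPM, from 129 counts, well inside the range of the other groups. The ratio of the 2 responders was 31.9, and only 0.0438% of all genes tested differed as much between them. With means of 62.8 ± 83.4 (SD, n = 2) CPM in responders, 5.27 ± 2.15 (SD, n = 6) CPM in non-responders and 7.93 ± 7.33 (SD, n = 8) CPM in IgG tumors, the log2 fold changes of 3.57 (SE 0.91, adjusted p = 0.0106) and 2.98 (SE 0.84, adjusted p = 0.0165) passed. Without responder replicate 16 they reversed, to -0.52 (adjusted p = 0.834) against non-responders and -1.12 (adjusted p = 0.583) against IgG tumors, so that the excess of Chil3 was that of 1 tumor. In a fit of responders and IgG tumors only, the second comparison missed the threshold (adjusted p = 0.0561). The summed neutrophil markers were high in both responders, with 35.1 CPM (replicate 15) and 40.2 CPM (replicate 16), against 5.13 to 13.6 CPM in IgG and 9.27 to 13.5 CPM in non-responder tumors, with 3 of the 7 tested genes passing against non-responders but the defining marker Ly6g at 0 in all tumors and Camp and Ngp too low to test. Among all genes 19.7% passed against non-responders. The part of neutrophils in the level of Chil3 was not tested. Chil4, a close copy of Chil3 with which it could share reads, held at most 3 counts in every tumor.

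**Figure D2:**
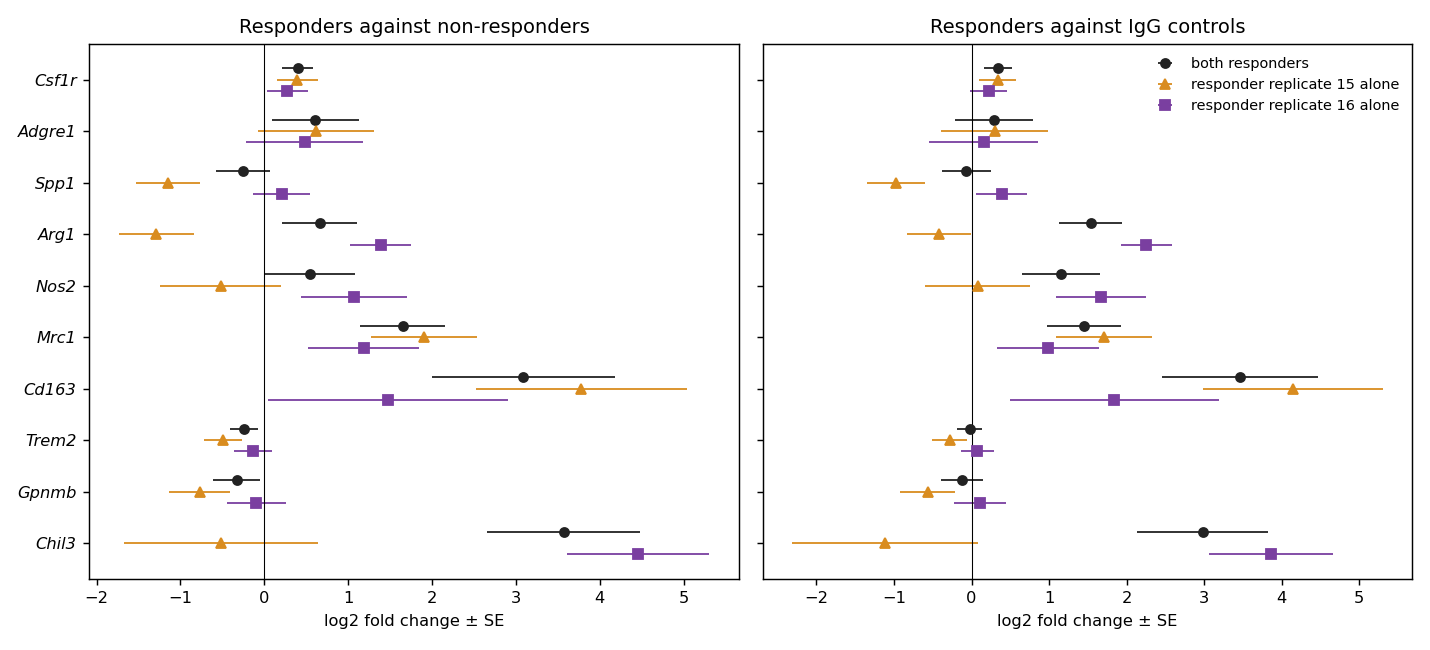
Log2 fold change with its SE from edgeR for each member, between responders and non-responders and between responders and IgG tumors, with both responders in the fit (black) and with responder replicate 15 alone (orange triangles) or replicate 16 alone (purple squares). Mrc1, Cd163, Csf1r and Adgre1 stayed above 0 with either responder, whereas Arg1 went from -1.29 to 1.39 and Chil3 from -0.52 to 4.46 against non-responders.

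None of the lipid-associated members passed in any of the 3 comparisons with all tumors. Spp1 (chr5:104435118-104441050, plus strand) ran from 203 through a median of 253 to 338 CPM in IgG tumors, from 149 through 307 to 388 CPM in non-responders, and was 137 and 355 CPM in responder replicates 15 and 16. Responder replicate 15 thus held the least Spp1 of all tumors and replicate 16 the second most, and no group stood apart. Its log2 fold changes were -0.25 (SE 0.32, adjusted p = 0.664) between responders and non-responders, -0.066 (SE 0.31, adjusted p = 0.911) between responders and IgG tumors and 0.19 (SE 0.21, adjusted p = 0.987) between non-responders and IgG tumors. Osteopontin is also made by osteoclasts and by some tumor cells. The summed osteoclast markers, 1 of 5 of which passed between responders and non-responders, lay at 65.0 to 152 CPM in IgG, 77.0 to 186 CPM in non-responder and 198 and 162 CPM in responder tumors, with Calcr too low to test. Among all genes 19.7% passed between responders and non-responders. The part of osteoclasts in Spp1 was not tested.

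Trem2 (chr17:48346401-48354147, plus strand) encodes a lipid-sensing receptor that signals through Tyrobp, and it was the least variable member. It ran from 26.6 through a median of 32.9 to 40.7 CPM in IgG tumors, from 32.4 through 37.7 to 47.8 CPM in non-responders, and was 28.2 and 36.6 CPM in responders. The highest tumor held 1.79 times the lowest over all 16. The log2 fold change was -0.24 (SE 0.17, adjusted p = 0.376) between responders and non-responders and -0.026 (SE 0.16, adjusted p = 0.933) between responders and IgG tumors, with 95% intervals of -0.57 to 0.092 and -0.34 to 0.29. Between non-responders and IgG tumors it was 0.21 (SE 0.11, adjusted p = 0.987).

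Gpnmb (chr6:49036546-49070929, plus strand) encodes a membrane glycoprotein of lipid-laden macrophages that pigment cells also make. It ran from 48.5 through a median of 76.8 to 91.4 CPM in IgG tumors, from 46.7 through 98.8 to 109 CPM in non-responders, and was 53.8 and 87.1 CPM in responders. Of the non-responders, 4 lay above every IgG tumor and non-responder replicate 9 lay below all of them. The log2 fold changes were -0.33 (SE 0.28, adjusted p = 0.475), -0.12 (SE 0.27, adjusted p = 0.799) and 0.21 (SE 0.18, adjusted p = 0.987) for responders against non-responders, responders against IgG and non-responders against IgG tumors. Without the 3 tumors of high mitochondrial share the first became -0.60 and passed (adjusted p = 0.0432). The melanocyte markers were near absent, summing to at most 0.709 CPM in any tumor, and 4 of the 5, Mlana, Tyr, Dct and Tyrp1, were too low to test, Tyrp1 being at 0 in all tumors.

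**Figure D3:**
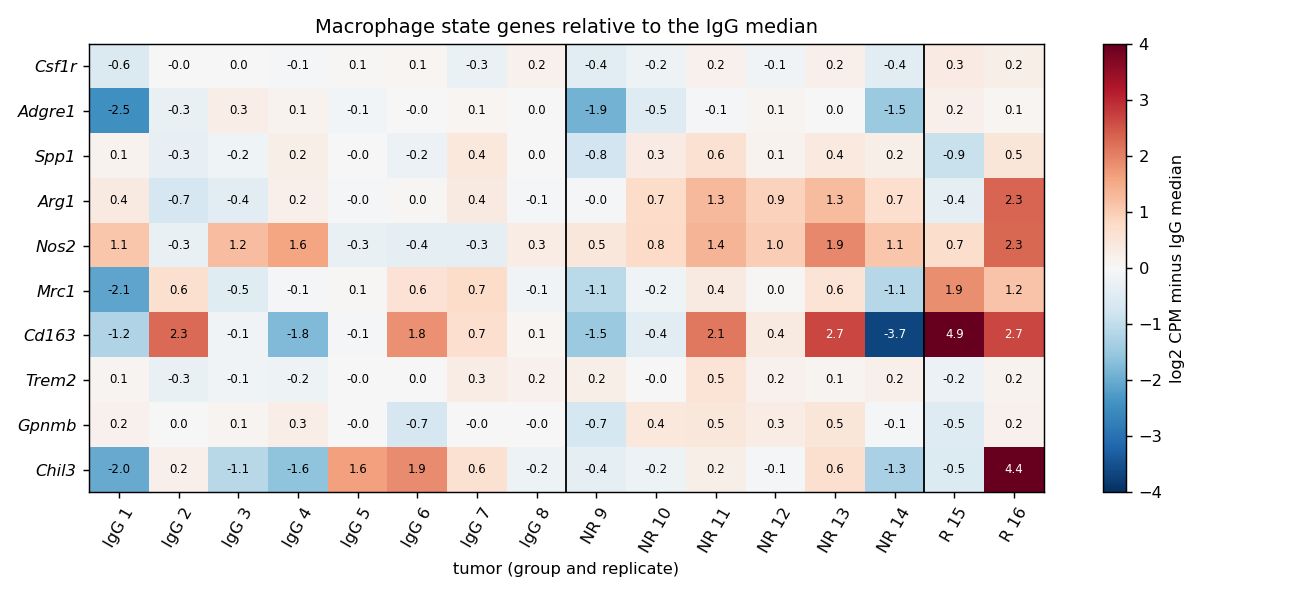
Each cell is the log2 CPM of a member in 1 tumor minus the median of the 8 IgG tumors, with vertical lines between IgG, non-responder (NR) and responder (R) tumors. Cd163 and Mrc1 are high in both responders, Arg1, Nos2 and Chil3 are highest in responder replicate 16, and Adgre1 is low in IgG replicate 1 and non-responder replicates 9 and 14.

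The 2 responders differed from each other along these lines. Replicate 16 held 31.9 times the Chil3, 6.45 times the Arg1, 3.05 times the Nos2 and 2.597 times the Spp1 of replicate 15, and ratios this far from 1 in either direction occurred in 0.0438%, 0.789%, 5.24% and 7.47% of all genes tested. It held 0.205 times the Cd163 of replicate 15, a ratio met by 1.68% of genes, and 0.613 times the Mrc1, met by 20.8%. The identity genes were nearly equal in both, at ratios of 0.932 for Csf1r and 0.919 for Adgre1. The order of the 2 tumors in B cell and adipocyte markers, both higher in replicate 15, was that of Cd163 and Mrc1. With 1 tumor on each side there is no test of these differences.

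How far the amount of macrophage RNA goes along with these differences was examined by adding an index, the mean log2 CPM of the 15 pan-macrophage genes, to the fit. At equal index 2 members passed between responders and non-responders, Mrc1 at 1.64 (SE 0.52, adjusted p = 0.0369) and Chil3 at 3.63 (SE 0.94, adjusted p = 0.0131), against 18.8% of all genes. Between responders and IgG tumors no member passed, against 13.2% of all genes, although the log2 fold changes of Mrc1, at 1.55 (SE 0.61, adjusted p = 0.117), and Chil3, at 3.40 (SE 1.305, adjusted p = 0.106), were no smaller than without the index and their SE were wider. Arg1 fell short at 1.07 (SE 0.52, adjusted p = 0.209), from 1.54 without the index. In the same fit 0% of all genes passed between non-responders and IgG tumors, members included. Arg1 in non-responders moved closer to IgG tumors, from a log2 fold change of 0.87 to 0.51 (SE 0.36). Cd163 had a log2 fold change of 3.09 (SE 1.18, adjusted p = 0.0858) against non-responders and 3.45 (SE 1.46, adjusted p = 0.144) against IgG tumors, so that its call against IgG tumors was lost. Neither call between responders and non-responders was kept with Csf1r alone as the index, where Mrc1 stood at 0.82 (adjusted p = 0.283) and Chil3 at 2.74 (adjusted p = 0.118). Csf1r is itself a member. Its Pearson r with Mrc1 was 0.747 over the 14 IgG and non-responder tumors, but 0.0214 without the 3 of high mitochondrial share. Chil3 again turned negative without responder replicate 16, at -0.75 (adjusted p = 0.761), and missed the threshold without the 3 tumors of high mitochondrial share (3.24, adjusted p = 0.0643). Mrc1 missed it without either responder (adjusted p 0.0802 without replicate 16 and 0.460 without replicate 15) and without non-responder replicate 9, 10, 12 or 14 (adjusted p 0.0542 to 0.137).

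Within the 14 IgG and non-responder tumors no member, and 0% of the 15925 genes tested, had a slope on the index that passed. The steepest positive slopes were those of Nos2, at 3.39 log2 units per log2 unit of the index (SE 1.38, unadjusted p = 0.0268), and Arg1, at 1.38 (SE 0.80, unadjusted p = 0.105). Trem2, whose protein signals through an adaptor encoded by 1 of the index genes, had a slope of 0.97 (SE 0.41, unadjusted p = 0.0304), close to proportional. The steepest negative slope was that of Chil3, at -2.81 (SE 2.47, unadjusted p = 0.274). The slopes of Mrc1 and Cd163 were -0.85 (SE 1.56) and -0.27 (SE 3.94). The slopes of Mrc1 and Cd163 turned positive and passed with Csf1r as the index, at 2.06 (adjusted p = 0.0419) for Mrc1 and 5.28 (adjusted p = 0.0183) for Cd163, and Adgre1 passed as well at 2.54 (adjusted p = 0.0115). These fits held the 3 tumors of high mitochondrial share. Within the other 11 tumors, Pearson r with Csf1r was 0.0214 for Mrc1, 0.466 for Cd163 and 0.186 for Adgre1.

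Several of the members varied together from tumor to tumor. Of the 45 pairs of members, 8 had a Pearson correlation over the 14 IgG and non-responder tumors that passed after adjustment, all of them positive, and 4 passed by Spearman's rho. Among the 11 tumors without a high mitochondrial share no pair passed, so the passing pairs with Adgre1 and Csf1r are given within those 11 tumors only: r was 0.186 for Csf1r and Adgre1, -0.157 for Adgre1 and Mrc1, 0.0214 for Csf1r and Mrc1 and 0.466 for Csf1r and Cd163. The correlations among Csf1r, Adgre1 and Mrc1 over 14 tumors thus rested on the 3 tumors in which all of them were low. That of Csf1r and Cd163 was weakened without these tumors, from 0.702. With 11 tumors an adjusted p below 0.05 is also harder to reach.

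The scavenger pair and the lipid-associated pairs did not rest on those tumors in the same way. Mrc1 and Cd163 had r = 0.743 (permutation adjusted p = 0.0150) and rho = 0.829 (permutation adjusted p = 0.0121) over 14 tumors, r = 0.774 without the 2 tumors farthest from the median Mrc1, and r = 0.730 within the 11. Spp1 and Arg1 had r = 0.737 (permutation adjusted p = 0.0150) and rho = 0.789 (permutation adjusted p = 0.0178), r = 0.803 without the 2 farthest tumors and r = 0.848 within the 11, with 0.811 among IgG and 0.925 among non-responder tumors. Spp1 and Gpnmb had r = 0.798 (permutation adjusted p = 0.0126), rho = 0.635 (permutation adjusted p = 0.111), r = 0.608 without the 2 farthest tumors and r = 0.699 within the 11, but 0.461 among IgG tumors alone. Mrc1 and Chil3 had r = 0.731 (permutation adjusted p = 0.0150), rho = 0.824 (permutation adjusted p = 0.0121), r = 0.543 without the 2 farthest tumors and r = 0.608 within the 11. Of the remaining pairs among these genes, Cd163 and Chil3 passed by rho only (r = 0.657, permutation adjusted p = 0.0534, and rho = 0.780, permutation adjusted p = 0.0201), and Arg1 and Gpnmb did not pass (r = 0.562, permutation adjusted p = 0.106), with r = 0.926 among non-responders and 0.0354 among IgG tumors. In the non-responders Csf1r, Nos2, Mrc1, Cd163, Chil3, Spp1, Arg1 and Gpnmb each had their 2 highest values in replicates 11 and 13. Adgre1 and Trem2 did not. These 2 tumors also held the highest pan-macrophage sums of the group, 3121 and 2869 CPM, against 2021 to 2631 CPM in the others. Of these sums, Lyz2 alone held 1259 and 1255 CPM, against 422 to 869 CPM in the others. The part of the amount of macrophage RNA in the levels of the members in these tumors was not tested. Arg1 and Mrc1 had r = 0.861 among the 6 non-responders, -0.305 among the 8 IgG tumors and 0.0625 over the 14, and Mrc1 and Gpnmb had 0.856, -0.461 and 0.142. These within-group values are given as a description.

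Nos2 ran against Chil3 among the IgG tumors. The 3 IgG tumors with the most Nos2, replicates 1, 3 and 4, held 1.33, 2.55 and 1.77 CPM of Chil3, and the other 5 held 4.82 to 20.7 CPM, so that the 2 sets did not overlap in either gene. The IgG tumors thus fell into separate clusters by Nos2, and no correlation is given for them. Chil3 showed no such gap, with a step from 2.55 to 4.82 CPM between the sets and from 8.41 to 17.5 CPM within the other 5. Among the 6 non-responders the relation had the opposite sign, at r = 0.531 (exact permutation p = 0.258).

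**Figure D4:**
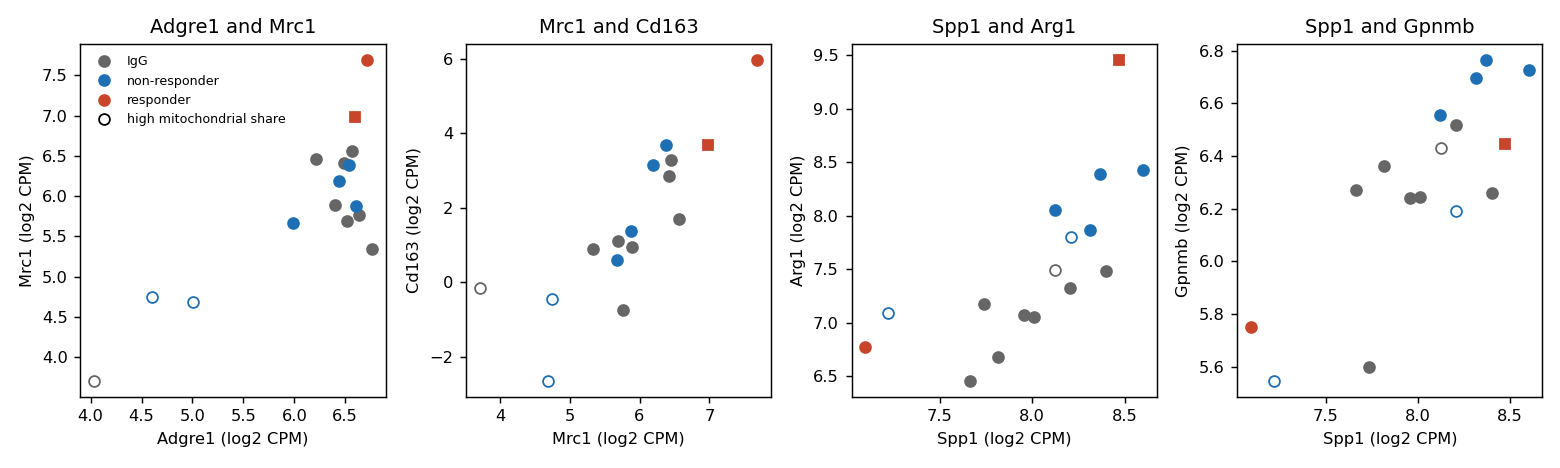
Log2 CPM of 4 pairs of members, with 1 point per tumor, open points for the 3 tumors of high mitochondrial share and a circle and a square for responder replicates 15 and 16. The 3 open points set the relation of Adgre1 and Mrc1, whose r was -0.157 within the other 11 IgG and non-responder tumors, while Spp1 and Arg1 kept r = 0.848 there.

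Tumor by tumor, each member resembled different genes. As a description over the 14 IgG and non-responder tumors, with the tumors of high mitochondrial share included, the nearest genes to Cd163 were Cd209f, a lectin gene of the tissue-resident list, at r = 0.960, and Chl1 at 0.959. Those of Mrc1 were Prex2 at 0.965 and Mrps18b at 0.953, those of Csf1r were Ehd4 at 0.944 and Pitpna at 0.944, and those of Adgre1 were Dhrs1 at 0.982 and Ano10 at 0.982. Arg1 was nearest to Glrx at 0.931 and AA467197 at 0.894, and Nos2 was nearest to H2-Q5 at 0.927 and Adam8 at 0.903. The remaining members had looser neighbours, with Hyal2 at 0.890 and Dapp1 at 0.882 for Chil3, Cd300ld at 0.851 and Renbp at 0.838 for Gpnmb, Gm10252 at 0.828 and Gla at 0.819 for Spp1, and AB124611 at 0.823 and Prdx5 at 0.810 for Trem2. Within the 11 tumors without a high mitochondrial share the leading gene was another for all members: Inpp5d for Csf1r, Oas1c for Adgre1, Gla for Spp1, Fcgr2b for Arg1, Foxf1 for Nos2, Abcd2 for Mrc1, Serpina3n for Cd163, Ngrn for Trem2, Slc27a1 for Gpnmb and Retsat for Chil3. Gla, Glrx and Hyal2 were among the 2 nearest genes in both sets of tumors. The second nearest gene to Mrc1 in those tumors was the adipocyte marker Plin4, at r = 0.911.

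Other genes of the same states were counted on lists that hold no member, and the genes named below passed between responders and non-responders at an adjusted p of at most 0.0436. Among all genes 15.4% were higher in responders than in non-responders and 4.34% lower. Of 11 tested alternative activation genes, 7 were higher in responders than in non-responders and none lower, with a list median log2 fold change of 1.82. They included the signalling inhibitor Socs2 (1.82), the IL-4 receptor chain Il4ra (1.04), the chemokine Ccl22 (2.29) and the lectin Clec10a (2.99). Unlike Chil3, these were high in both responders, Ccl22 with 18.7 and 15.8 CPM against a non-responder mean of 3.50 ± 2.04 (SD, n = 6) CPM. The summed list reached 296 and 203 CPM in responder replicates 15 and 16, against 60.7 to 104 CPM in IgG and 69.8 to 128 CPM in non-responder tumors. Of these sums, Il4ra alone held 165 and 110 CPM in the responders. Its means were 56.2 CPM in IgG and 66.9 CPM in non-responder tumors. B cell and dendritic cell markers were higher in responders as well, and the part of those cells in this list was not tested. Of 14 classical activation genes 2 were higher, the costimulatory receptor Cd40 (1.36) and the IL-12 subunit Il12b (1.97), which is close to the share among all genes. The summed list, at 1215 and 1866 CPM, overlapped the 1096 to 1634 CPM of non-responders.

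Of 10 genes of the tissue-resident macrophage program, which accompany Cd163 in resident cells, 4 were higher in responders than in non-responders, against 15.4% of all genes. They were Timd4, a receptor for phosphatidylserine (log2 fold change 5.64), the selenium carrier Selenop (2.40), the growth factor Igf1 (2.97) and the bridging protein Gas6 (3.31). The summed list was 1223 CPM in responder replicate 15 and 536 CPM in replicate 16, in the order of Cd163 and also of the B cell and adipocyte sums, whose part in it was not tested, against 161 to 321 CPM in IgG and 176 to 352 CPM in non-responder tumors. Of 12 lipid-associated program genes, 2 were higher, which is close to the share among all genes. They were the lipase Lpl (4.28) and the fatty acid receptor Cd36 (3.47), both of which adipocytes express. The lysosomal membrane gene Cd63 was lower (-0.56). Of 8 monocyte genes 3 were higher, Ly6c2 (2.48), Plac8 (1.20) and Ms4a4c (0.87), the last encoding a membrane protein of the MS4A family. Of the 15 pan-macrophage genes none was higher and the fractalkine receptor Cx3cr1 was lower (-1.37), at 44.8 and 17.0 CPM against a non-responder mean of 79.9 ± 33.1 (SD, n = 6) CPM. Non-responder replicates 9 and 14, of high mitochondrial share, held 139 and 100 CPM of Cx3cr1, and the other non-responders 58.3 to 62.2 CPM.

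Some genes of the signals that act on these states passed between responders and non-responders, where 19.7% of all genes did. Of 7 tested ligands, Il10 was higher in responders than in non-responders (1.62), and both ligands of Csf1r were lower, Il34 (-0.66) and Csf1 (-0.57), while Il4, Il13 and Csf2 were too low to test. Of 9 receptors, 3 were higher: Csf2rb, the shared chain of the GM-CSF receptor (0.90), the IL-10 receptor chain Il10ra (0.71) and the interferon gamma receptor chain Ifngr1 (0.34). Of 11 genes of arginine and polyamine metabolism, the second arginase Arg2 (2.38), the arginine transporter Slc7a2 (1.35) and Gch1, which supplies a cofactor of nitric oxide synthase (0.84), were higher and the spermidine synthase gene Srm (-0.47) was lower, as was the spermine synthase gene Sms (-0.48), named after its values were seen. Slc7a2 followed Arg1 in being higher in responder replicate 16, with 108 CPM against 49.8 CPM in replicate 15. None of the 10 hypoxia genes passed, and their sums in responders, 1290 and 1344 CPM, lay below the 1547 to 2194 CPM of all non-responders and at the low end of the 1236 to 2382 CPM of IgG tumors.

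Against IgG tumors, where 17.7% of all genes were higher and 5.17% lower, the counts of genes higher were 10 of 11 for alternative activation, 7 of 14 for classical activation, 7 of 10 for the tissue-resident program, 4 of 8 for monocytes, 5 of 9 for the receptors and 1 of 5 for the osteoclast markers. There were 4 higher and 1 lower of 15 pan-macrophage genes, 2 higher and 1 lower of 12 lipid-associated program genes, 2 higher and 1 lower of 7 ligands, 4 higher and 2 lower of 11 genes of arginine and polyamine metabolism, and none of 10 hypoxia genes. Between non-responders and IgG tumors no gene of any list passed. All 6 T cell markers and 7 of 8 dendritic cell markers were higher in responders than in non-responders, where 15.4% of all genes were higher, and none of the 6 skeletal muscle markers passed.

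**Figure D5:**
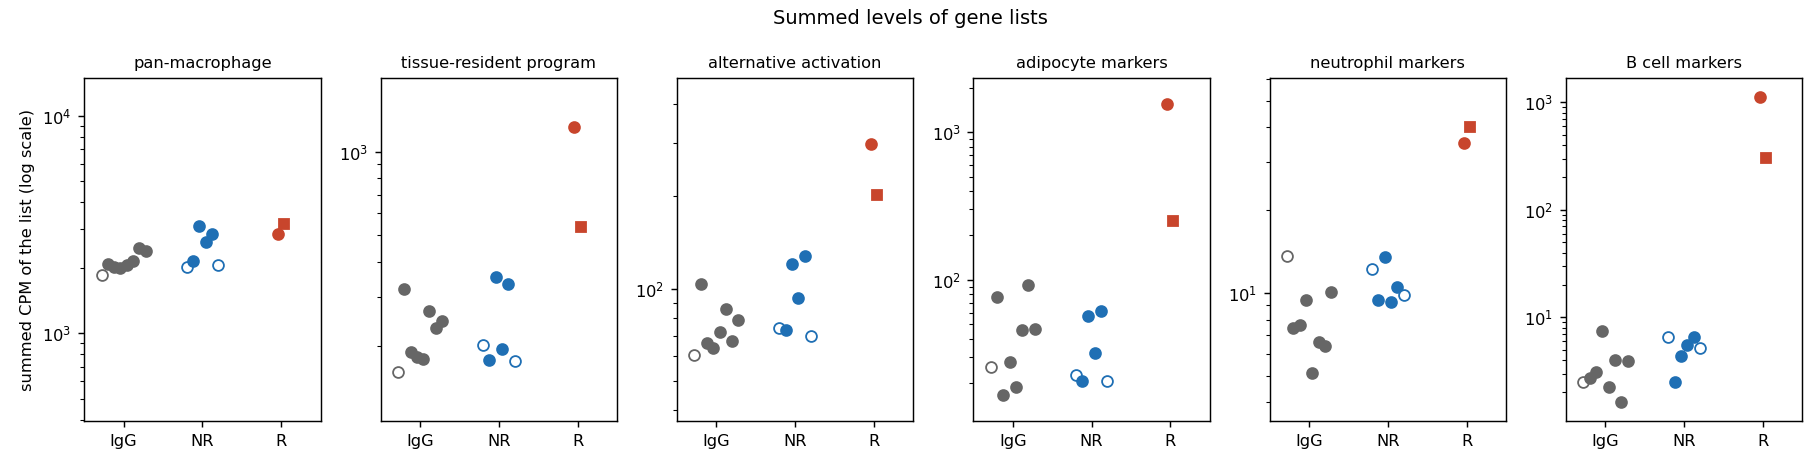
Summed CPM (log scale) of 6 gene lists per tumor in IgG, non-responder (NR) and responder (R) tumors, with open points for the 3 tumors of high mitochondrial share and a circle and a square for responder replicates 15 and 16. The pan-macrophage sums of the responders, 2865 and 3156 CPM, lay near the highest non-responder, whereas the adipocyte, neutrophil and B cell sums of both responders lay above every other tumor. Of the pan-macrophage sums, Lyz2 alone held 1293 and 1573 CPM in the responders, against at most 1259 CPM in a non-responder.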

How the data were processed

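Poly(A) RNA of 16 MC38 tumors was sequenced, and per the labels and the paper the authors aligned reads to GRCm38 with STAR 2.6 and deposited expected counts per gene from RSEM 1.3.0, not normalized, as 1 table with a column per tumor. Because RSEM shares an ambiguous read among its candidate genes, 7.84% of the deposited values were fractional, and they were rounded here. Of the entries, 92 named no gene, held at most 185 counts in a tumor and were left out. Symbols and exon lengths came from GENCODE mouse release M21. Total counts ranged from 26603449 to 39948866 per tumor.

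Groups came from the sample titles, and each tumor was from another mouse. Counts were scaled by TMM and tested with edgeR 4.0.16 (R 4.3.3) in 1 fit of all 16 tumors, after filterByExpr with the 3 groups had removed genes of low count, by the robust quasi-likelihood test. Benjamini-Hochberg adjustment covered all 18251 genes, and a gene passed at an adjusted p below 0.05. This threshold with a log2 fold change above 1 in size was an alternative, as was DESeq2 1.42.0. CPM are counts per 1000000 of TMM-scaled library size, log2 CPM used a prior count of 2, and 95% intervals are 1.96 SE. Correlations used 100000 permutations with adjustment over 45 pairs, or all orders for 6 tumors. Where only 1 responder was in a fit, it was assumed to vary like the other groups. The scripts were tested on simulated counts. The promoter windows, from RefSeq, covered 6 of the 10 members, and other steps ran in Python 3.11.15 with scipy 1.17.1, pandas 2.3.3 and numpy 2.4.6.

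The members and the 18 gene lists (pan-macrophage, monocyte, lipid-associated program, alternative activation, classical activation, tissue-resident program, macrophage ligands, macrophage receptors, arginine and polyamine metabolism, hypoxia, and markers of neutrophils, dendritic cells, osteoclasts, melanocytes, adipocytes, skeletal muscle, B cells and T cells) were chosen with earlier results of these data known. Named genes are the members, up to 4 genes of smallest p per list among those passing between responders and non-responders, and for each member the 2 genes of highest Pearson r whose mean count was 100 or more. Spatial data were not analysed here.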

Additional observations from a re-analysis of the deposited data

Results flagged for a closer look

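In 4 of the 20 sets of a member's log2 CPM in the IgG or non-responder group, 1 tumor lay farther from its group than Dixon's 95% limit, where chance alone gives about 1 in 20. The limit refers to log2 CPM, and the levels below are printed in CPM. Adgre1 at 16.3 CPM and Mrc1 at 13.04 CPM were both the lowest IgG values and came from IgG replicate 1, the tumor with the highest share of mitochondrial transcripts at 7.60%. Spp1 at 148.8 CPM was the lowest non-responder value and came from replicate 9, with a mitochondrial share of 6.00%. Gpnmb at 48.5 CPM was the lowest IgG value and came from replicate 6, in which the skeletal muscle markers summed to 1849 CPM against 3.25 to 73.9 CPM in all other tumors. The part of the mitochondrial share or the muscle RNA in these values was not tested.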

How the results depend on the processing

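No paired analysis was possible because each replicate number occurs once in the series. Leaving out each tumor in turn gave 0 to 3 members passing between responders and non-responders in place of 2, 1 to 4 between responders and IgG tumors in place of 4, and for all genes 1039 to 5046 in place of 3599, 1398 to 5682 in place of 4175, and 0 to 7 in place of 0 between non-responders and IgG tumors. At equal macrophage index it gave 0 to 3 in place of 2 members between responders and non-responders and 0 to 2 in place of 0 between responders and IgG tumors. It gave 5 to 11 in place of 8 correlated pairs. With no filter on low counts 1 member passed between responders and non-responders and 2 between responders and IgG tumors. With Csf1r as the index these were 0 and 1 at equal index, and 3 slopes in place of 0. The rule with a fold threshold kept 2730 genes between responders and IgG tumors, and DESeq2 called 8 genes between non-responders and IgG tumors. Without the 3 tumors of high mitochondrial share, an alternative chosen after seeing the data, 5802, 7409 and 1 genes passed in the 3 comparisons, 1 and 2 members at equal index between responders and non-responders and between responders and IgG tumors, and 0 correlated pairs. Over the fits that each left out 1 tumor, the log2 fold change of Chil3 ran from -0.52 to 4.46 against non-responders, from -1.12 to 3.86 against IgG tumors and from -0.75 to 4.39 at equal index against non-responders, and that of Arg1 against IgG tumors from -0.42 to 2.25, with each lowest value, a reversal, without responder replicate 16 and each highest without responder replicate 15. With Csf1r as the index the slopes of Mrc1 and Cd163 reversed to 2.06 and 5.28. The cause of these changes was not tested. No member passed between non-responders and IgG tumors under any alternative. With 2 responders, 1 tumor decides most of the calls, and no depth added to these tumors would change that number.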
